A study of Mus musculus with 8 samples.

Results

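The genes described here encode the machinery of regulated exocytosis and the proteins of the secretory granule: every gene of the synaptotagmin (Syt), synaptotagmin-like (Sytl), syntaxin (Stx), syntaxin-binding (Stxbp), vesicle-associated membrane protein (Vamp), complexin (Cplx) and synaptosomal-associated protein (Snap) symbol families, with the granule genes Chga, Chgb, Scg2, Scg3, Scg5, Ptprn, Ptprn2, Cpe and Pcsk1. They were taken by gene symbol, from array probe sets that name a single gene, which gave 64 genes of 18193 on the array. Each was read from the probe set with its highest mean over the 8 arrays (39 of the 64 have several). The symbol rule also takes up Snap91, a clathrin assembly protein that is not a SNARE. Syt15, Sytl3, Sytl5 and Vamp9 were not analysed here, because no probe set used here names them alone.

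Islet RNA from male C57Bl/6 mice was assayed in 4 groups of 2 oligonucleotide arrays each: Irs2-/- mice given sodium tungstate, untreated Irs2-/- mice, wild-type (WT) mice given sodium tungstate, and untreated WT mice. Irs2 relays insulin and IGF signals inside the cell, and tungstate salts lower blood glucose in diabetic rodents. Mice drank tungstate solution, or distilled water where untreated, over 21 days that began at 10 weeks and ended at 13 weeks of age. The design text puts the solution at 2 mg/ml and the sample labels put it at 2 mg/dl, so the dose is uncertain. The labels call the mice Irs2 knockouts and name no promoter or cell type for the deletion, and they do not say whether mice were pooled, so the p-values reflect only how far these samples spread.

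An endocrine granule fuses with the plasma membrane when a vesicle SNARE (a Vamp) winds together with target membrane SNAREs (a syntaxin and Snap25). Syntaxin-binding proteins and complexins assist or hold back that step, and synaptotagmins are the calcium sensors that trigger it. Synaptotagmin-like proteins tether the granule to the membrane through Rab27. Inside the beta cell granule, granins pack the cargo, Pcsk1 and Cpe process proinsulin, and Ptprn and Ptprn2 span the granule membrane.

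All values are log2 expression after RMA, the array summary used by the authors, and differences are given as log2 ± standard error (SE) from a limma fit of the 4 group means over 13369 tested genes. A gene is said to have risen or fallen only at a Benjamini-Hochberg adjusted p under 0.05 over all 13369. Irs2 itself had 4.78 and 4.86 in treated Irs2-/- islets, 4.54 and 4.89 in untreated Irs2-/- islets, 7.89 and 7.61 in treated WT islets, and 7.91 and 7.73 in untreated WT islets, so the Irs2 level matches the label on all 8 arrays. Median levels per array lay between 5.63 and 5.71 and the highest level between 14.72 and 14.75. Of the 64 genes, 58 passed the filter on low values (a mean of at least 5.27), and Cplx3, Cplx4, Stx11, Stx19, Syt10 and Syt16 did not.

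Levels of several cell type markers differed with genotype, and these values belong beside the results below. The mean level of 8 beta cell markers was 11.74 and 12.34 in treated Irs2-/- islets, 11.47 and 11.70 in untreated Irs2-/- islets, 12.67 and 12.63 in treated WT islets, and 12.69 and 12.60 in untreated WT islets, and 5 of the 8 fell in untreated Irs2-/- islets. Ins2 was near the top of the scale on every array (14.72 to 14.75). The mean of 13 macrophage markers was 7.44 and 7.52 in treated Irs2-/- islets, 8.47 and 8.67 in untreated Irs2-/- islets, 7.19 and 7.13 in treated WT islets, and 7.31 and 7.11 in untreated WT islets. All 12 tested macrophage markers rose in untreated Irs2-/- against untreated WT islets, and 7 of the 12 fell with tungstate in Irs2-/- islets. Exocrine (acinar) markers varied within groups: 18 of them averaged 11.11 and 12.04 in untreated Irs2-/- islets, against 8.40 and 11.29 in untreated WT islets. The mean of 3 delta cell markers was 10.44 and 10.32 in treated Irs2-/- islets, 10.56 and 10.79 in untreated Irs2-/- islets, 11.26 and 11.04 in treated WT islets, and 11.31 and 11.12 in untreated WT islets, and 2 of the 3 fell in untreated Irs2-/- islets. Of 10 lymphocyte markers 3 rose there, and the list averaged 8.18 and 7.34 in untreated Irs2-/- islets, against 6.73 and 5.43 in untreated WT islets. It averaged 5.96 and 6.60 in treated Irs2-/- islets. Of 7 fibroblast markers 1 rose, and the list averaged 8.74 and 8.37 in untreated Irs2-/- islets, against 8.29 and 6.89 in untreated WT islets. The endothelial list averaged 8.25 and 8.16 in untreated Irs2-/- islets, against 7.68 and 7.71 in untreated WT islets. In the same groups the duct list averaged 6.47 and 6.48, against 6.23 and 6.17. The Schwann and neuron list averaged 6.28 and 6.39, against 6.09 and 5.96. In each of these lists 1 gene rose, while of 3 alpha cell markers 0 rose and 0 fell. The part of the content of any of these cell types in the results was not tested. In such bulk samples fewer cells of a type and less RNA per cell cannot be told apart.

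In untreated Irs2-/- islets, 14 of the 58 tested genes (24.1%) differed from untreated WT islets, against a background of 16.8% of all tested genes. The 8 that rose were Ptprn, Syt5, Pcsk1, Stxbp6, Chgb, Scg3, Stx18 and Vamp5. The 6 that fell were Sytl4, Stxbp5l, Syt14, Cplx2, Stxbp3 and Stx3. Rises were called for 8.27% and falls for 8.52% of all tested genes. The median difference was -0.02 in these genes and -0.01 in all tested genes, and the median size of a difference was 0.22 in both. The calls ran both ways: 4 of the 8 rises were granule proteins, and the largest falls were a docking gene and a SNARE partner. The arrays of both groups did not overlap for 33 of the 58 genes, where 60.6% of all tested genes did not overlap. In the genes called, a lack of overlap is not separate evidence, because the same arrays gave the calls. Of the 14 calls, 7 held with the acinar marker level as a covariate, and counts of 3 to 14 were left when each array was left out in turn. Without both untreated arrays numbered 1, Stxbp5l alone passed. The share of all tested genes called under these settings is not given, so a loss particular to these genes cannot be told from a general loss. The values of the 14 genes are plotted by array.

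**Figure D1:**
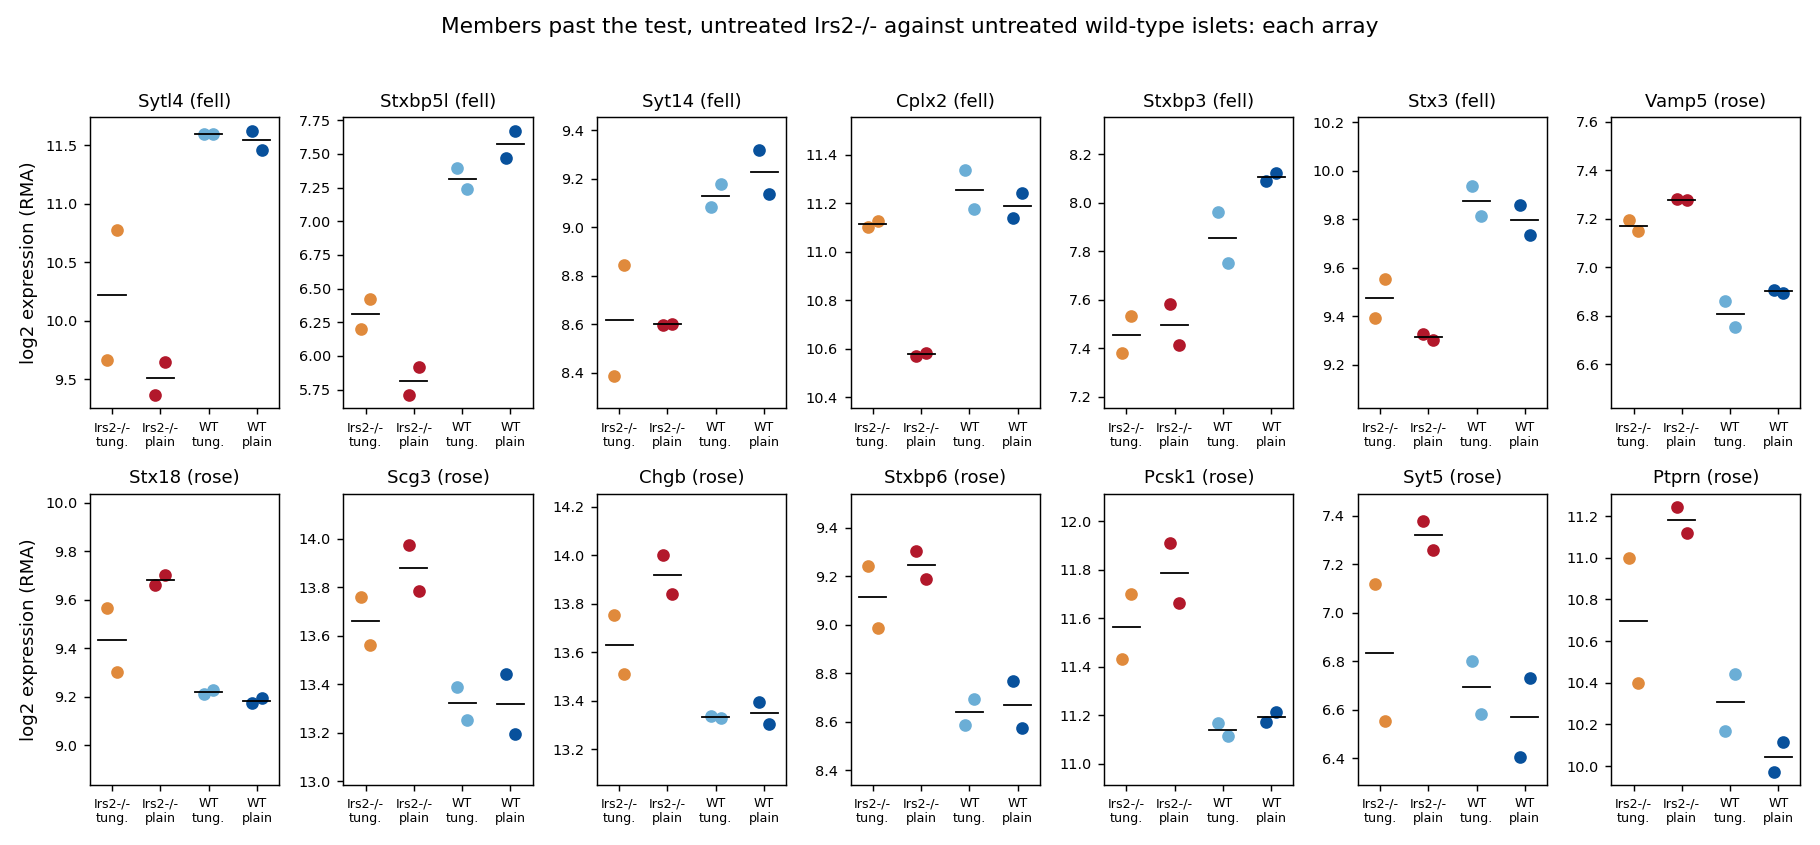
Log2 expression (RMA, y axis, scaled separately in each panel) of the 14 genes that differed between untreated Irs2-/- and untreated WT islets, ordered from the largest fall to the largest rise. Points are arrays and lines group means, for Irs2-/- with tungstate, Irs2-/- on plain water, WT with tungstate and WT on plain water. No array of untreated Irs2-/- islets overlaps the untreated WT arrays in any panel. The genes were chosen by a test on these same arrays, so this is not separate evidence.

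Of 9 granule proteins, all tested, 4 rose in untreated Irs2-/- islets, none fell, and 5 did not pass. Ptprn, a transmembrane protein of the dense-core granule (IA-2, an autoantigen of type 1 diabetes in humans), is annotated at chr1:75247035-75264497 (GRCm38.p6). It had 11.24 and 11.12 in untreated Irs2-/- islets, against 9.97 and 10.11 in untreated WT islets. The groups did not overlap, and the gap between them was wider than the gap within either. Ptprn rose by 1.14 ± 0.20, or 2.20-fold (adjusted p = 0.011), a call lost without the untreated WT or the untreated Irs2-/- array numbered 1 (adjusted p up to 0.0555).

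The other 3 risen granule genes moved by nearly the same amount. Pcsk1, the convertase that starts the cleavage of proinsulin, had 11.91 and 11.66 in untreated Irs2-/- islets, against 11.17 and 11.21 in untreated WT islets, a rise of 0.59 ± 0.14 (adjusted p = 0.0257). Chgb, a granin that aggregates in the granule core, had 14.00 and 13.84 in untreated Irs2-/- islets, against 13.39 and 13.31 in untreated WT islets, a rise of 0.57 ± 0.13 (adjusted p = 0.0228). Scg3, a granin that binds cholesterol-rich granule membrane, had 13.97 and 13.78 in untreated Irs2-/- islets, against 13.44 and 13.20 in untreated WT islets, a rise of 0.56 ± 0.14 (adjusted p = 0.0338). For each of them the lower Irs2-/- array lay above the higher WT array. Each of these 3 calls was lost when any single WT array, or the untreated Irs2-/- array numbered 1 (for Scg3 also that numbered 2), was left out, with adjusted p up to 0.117, 0.114 and 0.172 for Pcsk1, Chgb and Scg3.

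By the probe sets used, the remaining granule genes had differences near 0, given here with 95% intervals. Chga and Scg2 lay not far under the highest level of each array (14.72 to 14.75). Whether the scale compressed their differences was not tested. Chga, the granin used as a general endocrine marker, had 14.37 and 14.21 in untreated Irs2-/- islets, against 14.30 and 14.19 in untreated WT islets. The groups overlapped, and the difference of 0.04 had a 95% interval of -0.23 to 0.31. Scg2, another granin, differed by -0.05 (-0.31 to 0.22), and Scg5, the chaperone of the second proinsulin convertase, by 0.07 (-0.19 to 0.34). Cpe, which trims the basic residues that the convertases leave, differed by -0.10 (-0.36 to 0.16). Ptprn2, the close relative of Ptprn, differed by -0.01 (-0.33 to 0.32), and a dimmer probe set of it by -0.79 ± 0.29 (adjusted p = 0.118 over probe sets), so its probe sets disagree.

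Several granule protein genes are known targets of cAMP-response factors, which bind the letters TGACGTCA or its first part TGACG. The 150 bases before the start site of the risen granule genes are shown because all 4 hold at least TGACG, read on either strand; Chga, which did not pass, and the genes with the largest falls are shown beside them. Sequences are RefSeq's on GRCm38.p6, written 5′ to 3′ along the gene, with matches in capitals (CGTCA is TGACG on the other strand, and TGACGTCA holds TGACG on both). Ptprn is shown at chr1:75264209-75264358, Pcsk1 at chr13:75089707-75089856, Chgb at chr2:132781492-132781641, Scg3 at chr9:75684057-75684206, Chga at chr12:102554791-102554940, Sytl4 at chrX:133981813-133981962 and Stxbp5l at chr16:37384959-37385108. Pcsk1, Chgb and Chga lie on the plus strand and the others on the minus strand.
Ptprn: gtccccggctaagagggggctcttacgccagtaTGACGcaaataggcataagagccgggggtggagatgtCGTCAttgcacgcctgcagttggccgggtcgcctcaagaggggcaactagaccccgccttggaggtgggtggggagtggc
Pcsk1: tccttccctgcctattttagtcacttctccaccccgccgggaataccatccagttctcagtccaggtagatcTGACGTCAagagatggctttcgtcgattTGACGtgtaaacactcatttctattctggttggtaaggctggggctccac
Chgb: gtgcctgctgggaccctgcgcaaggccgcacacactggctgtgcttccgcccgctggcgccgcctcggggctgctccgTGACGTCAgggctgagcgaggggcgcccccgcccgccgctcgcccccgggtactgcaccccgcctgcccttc
Scg3: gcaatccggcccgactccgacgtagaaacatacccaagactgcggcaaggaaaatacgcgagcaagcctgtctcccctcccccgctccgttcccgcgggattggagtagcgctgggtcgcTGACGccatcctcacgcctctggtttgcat
Chga: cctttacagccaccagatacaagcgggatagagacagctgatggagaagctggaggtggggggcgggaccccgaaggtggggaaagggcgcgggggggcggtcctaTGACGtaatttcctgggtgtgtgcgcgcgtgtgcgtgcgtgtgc
Sytl4: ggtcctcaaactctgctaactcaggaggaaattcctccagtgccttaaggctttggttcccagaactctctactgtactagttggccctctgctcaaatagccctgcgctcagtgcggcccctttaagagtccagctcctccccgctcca
Stxbp5l: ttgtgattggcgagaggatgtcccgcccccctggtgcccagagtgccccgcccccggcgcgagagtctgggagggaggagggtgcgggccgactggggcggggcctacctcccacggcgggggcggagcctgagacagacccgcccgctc
The Chgb and Chga windows lie wholly outside the annotated gene, while those of Ptprn, Pcsk1 and Scg3 lie within it, upstream of the start site in the table but inside the span of a longer transcript. Ptprn has 2 start sites in the table, and the window of the other holds no match. Of 51 genes with a promoter in the table, 11 (21.6%) held TGACG and 4 (7.84%) TGACGTCA, against 13.5% and 1.42% of 27025 genes. Among granule genes 6 of 8 held TGACG. By result, 4 of 7 risen genes, 1 of 6 fallen genes (Stxbp3) and 6 of 33 that did not pass held it. Those 4 are the risen granule genes, while Stx18, Stxbp6 and Vamp5 rose without it. The split by result is therefore not separate from the split by role. These matches describe the letters only: Scg2 held TGACGTCA and Chga held TGACG, and neither passed the test.

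The largest difference of all was in the synaptotagmin-like group. Sytl4, or granuphilin, a Rab27a effector that docks insulin granules at the plasma membrane, is annotated at chrX:133936385-133981821. It had 9.36 and 9.65 in untreated Irs2-/- islets, against 11.62 and 11.46 in untreated WT islets. Every WT array, with or without tungstate, lay above every Irs2-/- array. This was not particular to Sytl4: Stxbp5l, Stxbp3, Stx3 and Syt14, among others, were separated likewise. Chgb and Pcsk1, among others, were separated in the opposite direction. The share of all tested genes separated in this way was not counted. Sytl4 fell by 2.03 ± 0.31, or 4.10-fold (adjusted p = 0.00738). Sytl1 and Sytl2, related Rab27 effectors, did not pass.

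Among the SNARE partners, 3 of 8 tested genes fell and 1 rose. Stxbp5l, or tomosyn-2, binds syntaxin and holds back SNARE assembly, and is annotated at chr16:37107075-37385015. It had 5.71 and 5.92 in untreated Irs2-/- islets, against 7.47 and 7.67 in untreated WT islets. Stxbp5l fell by 1.76 ± 0.14, or 3.38-fold (adjusted p = 0.00103), and its dimmer probe sets gave differences of -1.10 and -1.37. It was past the test in all 17 alternatives, with differences from -1.92 to -1.41. Sytl4 passed in 16 of 17.

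Cplx2, a complexin that binds the assembled SNARE complex, had 10.57 and 10.58 in untreated Irs2-/- islets, against 11.14 and 11.24 in untreated WT islets, and fell by 0.61 ± 0.11 (adjusted p = 0.0125). Its other probe sets gave -0.32 and -0.21 and did not pass, and the call was lost without the untreated WT array numbered 2 or the untreated Irs2-/- array numbered 1 (adjusted p up to 0.0744). Stxbp3 (Munc18c), the partner of syntaxin 4, had 7.58 and 7.41 in untreated Irs2-/- islets, against 8.09 and 8.12 in untreated WT islets, and fell by 0.61 ± 0.13 (adjusted p = 0.0189), a call lost without either untreated WT array or the untreated Irs2-/- array numbered 2 (adjusted p up to 0.0909). Stxbp6, or amisyn, which carries a SNARE-like domain, had 9.31 and 9.19 in untreated Irs2-/- islets, against 8.77 and 8.58 in untreated WT islets, and rose by 0.58 ± 0.13 (adjusted p = 0.0269). In all 3 the groups did not overlap. A dimmer probe set of Stxbp3 gave -0.53 ± 0.20 and did not pass (adjusted p = 0.120 over probe sets). A dimmer probe set of Stxbp6 gave 0.78 ± 0.14 and passed (adjusted p = 0.0156 over probe sets). Cplx1, the other complexin with a level above the filter, differed by 0.12 (-0.17 to 0.40).

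Of the target membrane SNAREs, 6 of 8 were tested and Stx3 alone fell. Stx3, a syntaxin of granule and apical membranes, had 9.33 and 9.30 in untreated Irs2-/- islets, against 9.86 and 9.74 in untreated WT islets, and fell by 0.48 ± 0.12 (adjusted p = 0.0301). Its 3 other probe sets gave -0.53, -0.63 and -0.65, and none passed (adjusted p = 0.0597, 0.0602 and 0.103 over probe sets). Snap25, the core SNARE of insulin exocytosis, had 10.66 and 10.67 in untreated Irs2-/- islets, against 10.40 and 10.18 in untreated WT islets. The difference of 0.38 did not pass (adjusted p = 0.131, interval 0.02 to 0.74). Stx1a, its syntaxin partner, differed by -0.26 (-0.67 to 0.15).

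Of 7 vesicle SNAREs, Vamp5 alone passed. Vamp5, known mainly from muscle, had 7.28 and 7.28 in untreated Irs2-/- islets, against 6.91 and 6.89 in untreated WT islets, and rose by 0.38 ± 0.10 (adjusted p = 0.0449). The call was kept in 5 of 17 alternatives. A dimmer Vamp5 probe set, under the filter, had 4.68 and 4.93 in untreated Irs2-/- islets, against 4.70 and 4.80 in untreated WT islets. Vamp2, the vesicle SNARE of insulin granules, differed by -0.04 (-0.34 to 0.27), and Vamp8, of granule and endosome fusion, by 0.34 (adjusted p = 0.0915). Of 10 SNAREs of inner membranes, Stx18, which serves retrieval from the Golgi to the endoplasmic reticulum, had 9.66 and 9.70 in untreated Irs2-/- islets, against 9.17 and 9.19 in untreated WT islets, and rose by 0.50 ± 0.12 (adjusted p = 0.0313). Its 4 other probe sets gave 0.29 to 0.39, and none passed.

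Of 16 synaptotagmins, 14 were tested, 1 rose and 1 fell. Syt5, a calcium sensor of dense-core vesicles, had 7.38 and 7.26 in untreated Irs2-/- islets, against 6.40 and 6.73 in untreated WT islets, and rose by 0.75 ± 0.20 (adjusted p = 0.0418). Syt14, a synaptotagmin without calcium binding, had 8.60 and 8.60 in untreated Irs2-/- islets, against 9.32 and 9.14 in untreated WT islets, and fell by 0.63 ± 0.16 (adjusted p = 0.0357). Syt7, the high-affinity calcium sensor of insulin release, differed by 0.02 (-0.28 to 0.32), and Syt4 by 0.27 (-0.16 to 0.70). Dimmer Syt7 probe sets gave 0.41 ± 0.17, 0.28 ± 0.16 and 0.03 ± 0.12. None passed (adjusted p = 0.160, 0.279 and 0.919 over probe sets), but the Syt7 probe sets differ among themselves. A dimmer Syt4 probe set gave 0.01. The calls of Syt5, Syt14, Stx3, Stx18, Stxbp6 and Vamp5 were each lost in 6 of 8 fits that left out an array, namely any WT array or any untreated Irs2-/- array. The adjusted p reached 0.198 for Syt5, whose difference ran from 0.59 to 0.92, and 0.167 for Syt14, 0.149 for Stx3, 0.126 for Stx18, 0.143 for Stxbp6 and 0.169 for Vamp5. The plot by role shows the falls and rises together.

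**Figure D2:**
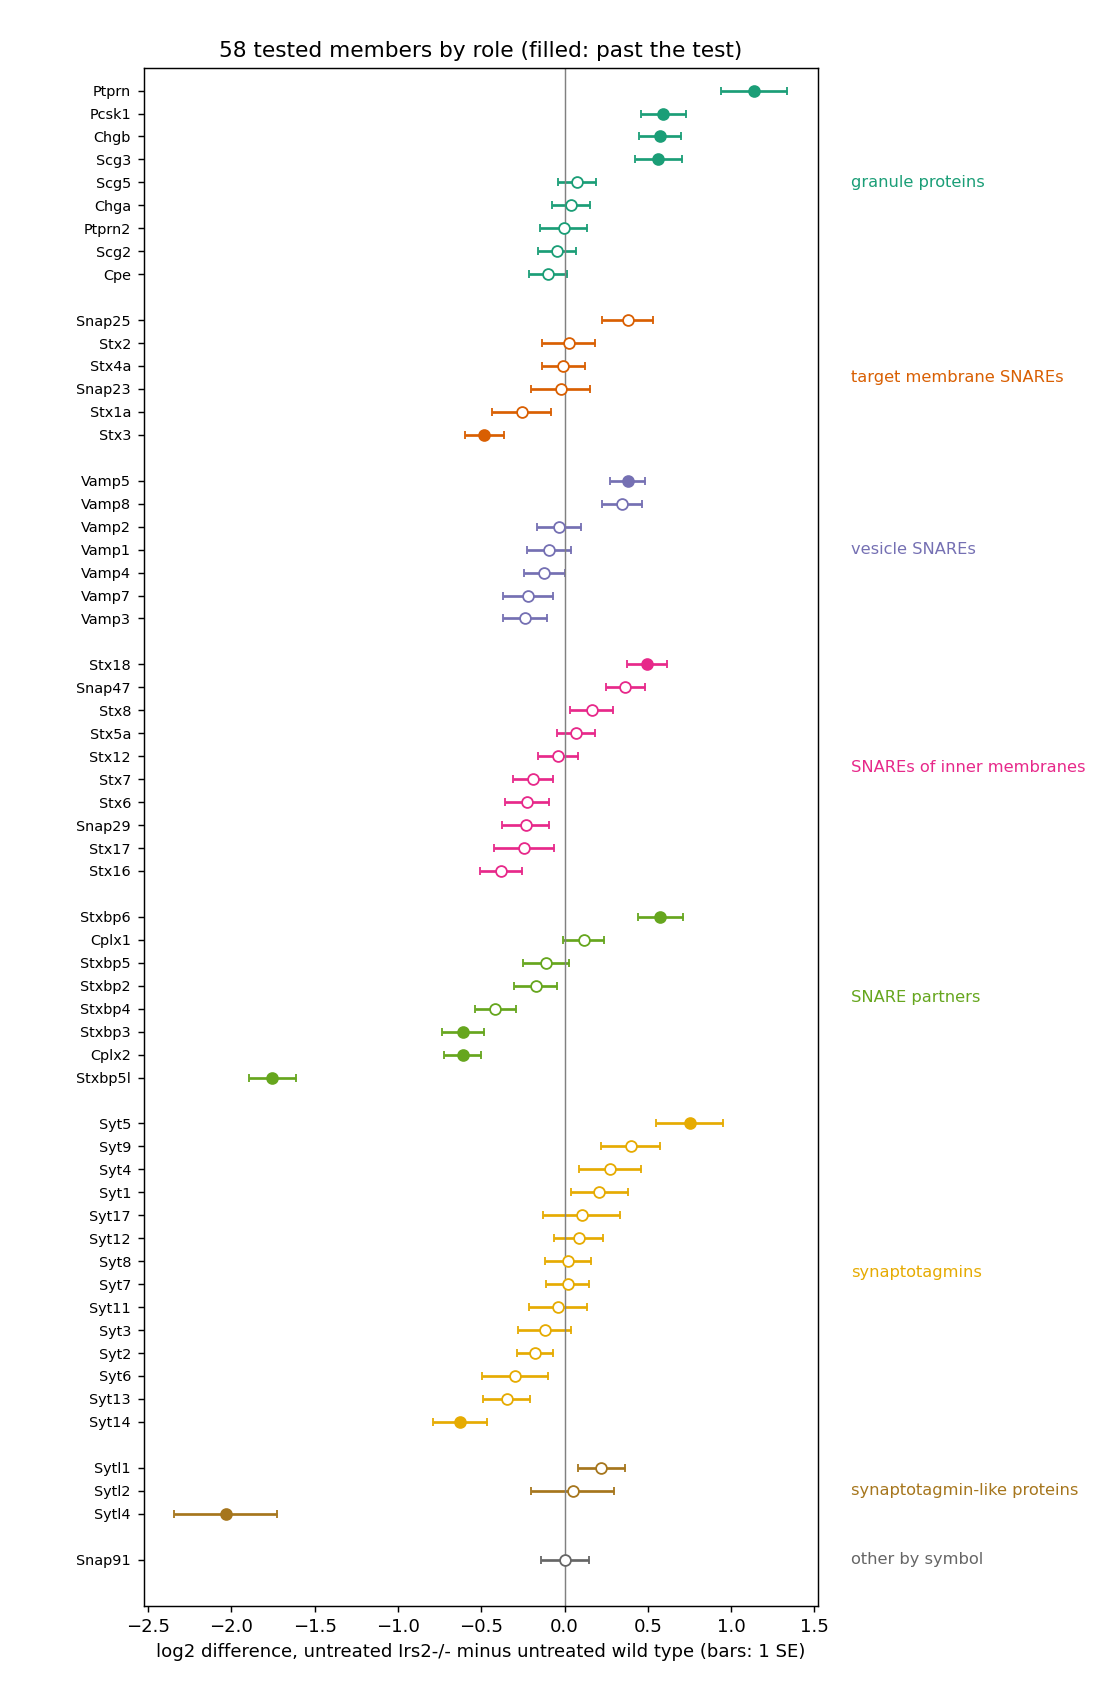
Log2 difference (x axis), untreated Irs2-/- minus untreated WT islets, of the 58 tested genes, grouped by role, with bars of 1 SE. Filled points passed limma's test; Sytl4 and Stxbp5l lie far left at -2.03 and -1.76, and Ptprn is the point farthest right at 1.14.

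Tungstate in Irs2-/- islets changed none of the 58 genes at the threshold (background 0.494% of all tested genes), and 5 of 58 had an unadjusted p under 0.05, where 13.3% of all tested genes did. The median difference was -0.01 in these genes and in all, and the arrays did not overlap for 22 of the 58, against 40.5% of all tested genes. Those 5 were Cplx2, Stxbp5l, Vamp1, Syt5 and Ptprn. Cplx2 had 11.10 and 11.13 in treated Irs2-/- islets, against 10.57 and 10.58 in untreated Irs2-/- islets, a difference of 0.54 ± 0.11 (adjusted p = 0.104). Both treated arrays lay above both untreated arrays, close to the WT arrays at 11.34 and 11.18 with tungstate and 11.14 and 11.24 without.

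Stxbp5l had 6.20 and 6.42 in treated Irs2-/- islets, against 5.71 and 5.92 in untreated Irs2-/- islets, a difference of 0.50 ± 0.14 (adjusted p = 0.196). Vamp1, a vesicle SNARE, differed by 0.41 (adjusted p = 0.240), Ptprn by -0.48 (adjusted p = 0.355) and Syt5 by -0.48 (adjusted p = 0.362). A dimmer Vamp1 probe set gave -0.02 ± 0.19 (adjusted p = 0.978 over probe sets), so the Vamp1 probe sets disagree. Ptprn had 11.0 and 10.40 in treated Irs2-/- islets, against 11.24 and 11.12 in untreated Irs2-/- islets. Its treated arrays were spread widely, the lower at the level of treated WT islets (10.17 and 10.44).

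Sytl4 rested on a single array. It had 9.66 and 10.77 in treated Irs2-/- islets, against 9.36 and 9.65 in untreated Irs2-/- islets, a difference of 0.71 (adjusted p = 0.377). Without the treated array numbered 1 the difference was 1.27 (adjusted p = 0.0269), but a single treated array is then assumed to vary like the other groups. Without the array numbered 2 it was 0.15. The array with the higher Sytl4 also had the higher beta cell marker mean, 12.34 against 11.74.

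The other risen granule genes did not pass for tungstate in Irs2-/- islets either. Chgb had 13.75 and 13.51 in treated Irs2-/- islets, against 14.00 and 13.84 in untreated Irs2-/- islets, a difference of -0.29 (adjusted p = 0.377). Pcsk1 had 11.43 and 11.70 in treated Irs2-/- islets, against 11.91 and 11.66 in untreated Irs2-/- islets, a difference of -0.22 (adjusted p = 0.527). The Chgb arrays did not overlap, while those of Pcsk1 did. Scg3 differed by -0.22 (adjusted p = 0.545), with 13.76 and 13.56 in treated Irs2-/- islets, against 13.97 and 13.78 in untreated Irs2-/- islets. Chga, Scg2, Scg5 and Cpe differed by -0.001, -0.01, 0.05 and 0.08, with 95% intervals that together ran from -0.28 to 0.34. These values share the untreated Irs2-/- arrays with the genotype differences above.

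Tungstate in WT islets changed none of the 58 genes, none of which had an unadjusted p under 0.05, and none of the 13369 (0%; 2.72% had an unadjusted p under 0.05). The effect of tungstate differed between genotypes for none of the 58 genes at the threshold (background 0.0224%). At an unadjusted p under 0.05, 4 of 58 differed (6.45% of all tested genes): Stxbp5l (0.75 ± 0.20, adjusted p = 0.615), Cplx2 (0.47 ± 0.16, adjusted p = 0.695), Ptprn (-0.74, adjusted p = 0.731) and Stx16 (0.43, adjusted p = 0.766). Stx16 is a syntaxin of the trans-Golgi network. For the same difference of tungstate effects, dimmer Cplx2 probe sets gave 0.17 ± 0.17 and -0.19 ± 0.31, so the Cplx2 probe sets disagree. Dimmer Stxbp5l probe sets gave 0.43 ± 0.19 and 0.59 ± 0.18. None of these passed. The plot of tungstate differences sets both genotypes side by side.

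**Figure D3:**
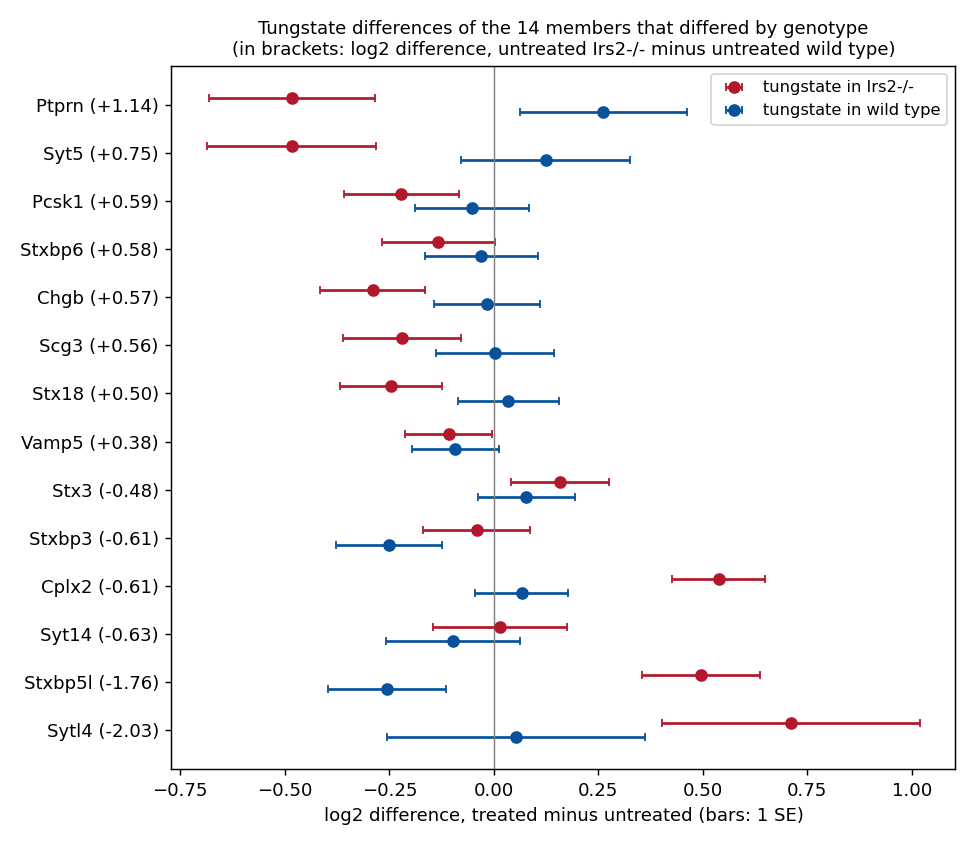
Log2 difference (x axis), treated minus untreated islets, within Irs2-/- (red) and WT (blue) mice, with bars of 1 SE, for the 14 genes that differed between the untreated genotypes, with that genotype difference in brackets. None passed limma's test; in Irs2-/- islets Cplx2 (0.54) and Stxbp5l (0.50) follow Sytl4 (0.71) as the highest values. The genotype and tungstate differences share the untreated Irs2-/- arrays.

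The treated arrays give a comparison of the genotypes that shares no array with the untreated one. All 14 genes that differed between untreated Irs2-/- and WT islets had the same sign between treated Irs2-/- and WT islets, as did 2177 of 2245 (97.0%) of all genes called on plain water. Among all tested genes the share was 49 of 58 here and 10140 of 13369 (75.8%) overall. Only Stxbp5l fell in treated Irs2-/- against treated WT islets (-1.0, adjusted p = 0.0271), 1 of 58 where 1.02% of all tested genes were called (0.389% lower). At an unadjusted p under 0.05, 16 of 58 and 16.1% of all tested genes differed. Its arrays there were 6.20 and 6.42 in treated Irs2-/- islets, against 7.39 and 7.24 in treated WT islets. Sytl4 differed by -1.38 (adjusted p = 0.0842) and Cplx2 by -0.14 (adjusted p = 0.613).

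Between treated groups none of the 4 granule genes risen on plain water passed. Ptprn differed by 0.39 (adjusted p = 0.390) and its arrays overlapped. Pcsk1 differed by 0.42 (adjusted p = 0.179), Scg3 by 0.34 (adjusted p = 0.294) and Chgb by 0.30 (adjusted p = 0.303). Pcsk1 had 11.43 and 11.70 in treated Irs2-/- islets, against 11.17 and 11.11 in treated WT islets. Chgb had 13.75 and 13.51 in treated Irs2-/- islets, against 13.34 and 13.33 in treated WT islets. The groups did not overlap for Pcsk1, Chgb or Scg3, which are among 26 of the 58 genes without overlap there. The share of all tested genes without overlap between the treated groups is not given here. Snap25 had 10.57 and 10.48 in treated Irs2-/- islets, against 10.27 and 9.86 in treated WT islets, a difference of 0.46 (adjusted p = 0.197). Syt14 differed by -0.51 (adjusted p = 0.170), Stx3 by -0.40 (adjusted p = 0.141) and Stxbp3 by -0.40 (adjusted p = 0.176). Chga (0.00), Scg2 (-0.07), Vamp2 (-0.04) and Syt7 (-0.06) had values near 0 there too. Dimmer Syt7 probe sets gave 0.09, 0.28 and 0.15 there, and none passed.

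**Figure D4:**
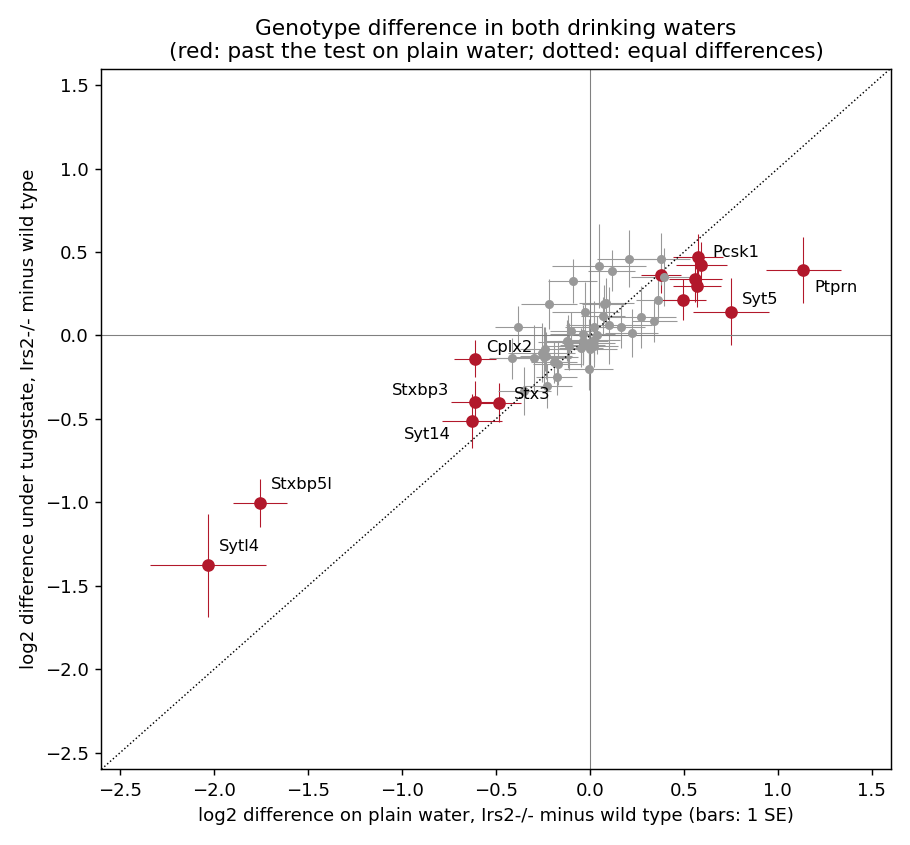
Log2 genotype difference, Irs2-/- minus WT, on plain water (x axis) against the same under tungstate (y axis), for the 58 tested genes, with bars of 1 SE; red marks the 14 genes past limma's test on plain water. All 14 red points lie in the quadrant of equal sign, and Sytl4 and Stxbp5l sit above the dotted line of equal differences.

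Against untreated WT islets, treated Irs2-/- islets also differed in Stxbp5l alone (-1.26, adjusted p = 0.021), where 0.352% of all tested genes were called (0.157% lower). At an unadjusted p under 0.05, 12 of 58 and 18.6% of all tested genes differed. Sytl4 differed by -1.32 (adjusted p = 0.0956) and Cplx2 by -0.07, and these values share the treated Irs2-/- arrays with those above. The Stxbp5l call was lost when any of the arrays of WT islets or the treated Irs2-/- array numbered 1 was left out (adjusted p up to 0.0991). The call between treated groups was lost without either treated WT array or the treated Irs2-/- array numbered 1 (adjusted p up to 0.272).

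A wider list of 76 genes that act beside these families (active-zone proteins, Rab GTPases and their effectors, priming factors, the exocyst, synaptic vesicle proteins and granule cargo) showed both directions. Of 70 tested, 5 rose and 12 fell in untreated Irs2-/- against untreated WT islets (24.3%, median difference -0.03), against 16.8% of all tested genes, 8.27% higher and 8.52% lower. The falls included Baiap3, a Munc13 relative of dense-core vesicles (-1.74 ± 0.29), Slc30a8, the zinc transporter of the insulin granule (-1.50 ± 0.22, also among the 8 beta cell markers above), and Rims3, an active-zone protein (-1.30 ± 0.16). Exph5, a Rab27 effector (-1.15 ± 0.15), Pclo, an active-zone scaffold (-0.95 ± 0.18), and Cadps, a priming factor of dense-core vesicles (-0.94 ± 0.12), fell too. The rises were Vgf, Sv2c, Cadps2 (0.82 ± 0.21), Rims1 (0.60 ± 0.12) and Syngr2 (0.44 ± 0.13).

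Vgf and Sv2c, 2 of the 70, also fell with tungstate in Irs2-/- islets, where 0.494% of all tested genes were called. Vgf, a granin-like neuropeptide precursor, had 9.77 and 9.33 in treated Irs2-/- islets, 10.87 and 10.87 in untreated Irs2-/- islets, 7.58 and 7.75 in treated WT islets, and 7.60 and 7.68 in untreated WT islets. It rose by 3.23 ± 0.16 with genotype and fell by 1.32 ± 0.16 with tungstate in Irs2-/- islets (adjusted p = 0.0185). Sv2c, a synaptic vesicle membrane protein, had 6.04 and 5.52 in treated Irs2-/- islets, 6.94 and 7.04 in untreated Irs2-/- islets, 4.99 and 5.05 in treated WT islets, and 4.82 and 5.16 in untreated WT islets. It rose by 2.00 ± 0.19 with genotype and fell by 1.21 ± 0.19 with tungstate in Irs2-/- islets (adjusted p = 0.0459).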

How the data were processed

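Total RNA from islets was hybridised to 8 Affymetrix arrays, 2 per group. The authors deposited log2 values for each probe set. The tools they list are RMA, affy and R (version 2.7.0), per the submitters' processing notes. No scan batch was known. Columns left unassigned numbered 0. Only the 34945 of 45037 probe sets (64 controls aside) with exactly 1 annotated gene were used; 932 had more and 9160 had no gene. All 64 genes matched RefSeq by gene number with the same symbol.

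A gene was read from its probe set with the highest mean. Genes with a mean under the 40th percentile (log2 5.27) were not tested (4824). A limma 3.58.1 fit of the 4 group means (R 4.3.3, data.table package version 1.17.8) on 4 residual and 3.89 prior degrees of freedom gave 6 contrasts, each adjusted by Benjamini and Hochberg over 13369 genes. The median SE of a difference was 0.14. Precision is limited by the number of arrays. The workflow was tested on simulated data.

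Named were Irs2, every gene of the set past the test, a fixed list of core granule and SNARE genes, and up to 6 genes each way of the wider list. Genes beside a count of unadjusted p were named after their values were seen, as were the genes under the filter. The members, lists and naming rule were chosen with earlier results of these data known. Alternatives were no filter, the 60th percentile, a variance trend, only the arrays compared, a replicate block, median centring, the mean of probe sets, the acinar level as a covariate and each array left out. Leaving out both untreated arrays numbered 1 was chosen after seeing the data. Replicate numbers were checked for pairing by the correlation of deviations (-0.07 to 0.42 over 6 pairs of groups, 0.42 for the untreated genotypes). Not every pair of groups was over 0.1, so the numbers were not taken to pair the samples.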

Additional observations from a re-analysis of the deposited data

How the results depend on the processing

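The genes called between untreated Irs2-/- and untreated WT islets, 14 in the report, numbered 15 without the filter, 15 at the 60th percentile, 13 with a variance trend, 13 after median centring, 14 with the mean of probe sets (13 of them the same) and 10 with only the arrays compared. With the acinar level as a covariate 7 passed (Stxbp5l, Sytl4, Cplx2, Ptprn, Chgb, Scg3 and Stxbp6), and without both untreated arrays numbered 1 only Stxbp5l did (1). Leaving out each array in turn gave 3 to 14: 3 without either untreated WT array or the untreated Irs2-/- array numbered 1, 6 without that numbered 2, 5 without either treated WT array, and 14 without either treated Irs2-/- array. The cause was not tested. Of 272 values of single genes and settings, 176 kept the call, 96 lost it and 0 reversed. The share of all tested genes called under each alternative is not given, here or below. A loss of calls particular to these genes therefore cannot be told from a loss among all tested genes.

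For tungstate in Irs2-/- islets the count was 0, and 0 to 1 over the arrays left out (Sytl4, without the treated array numbered 1). For tungstate in WT islets and for the interaction it was 0 under every alternative run. Between treated groups it was 1, and 0 to 3 over the arrays left out, with 3 without the treated Irs2-/- array numbered 2. For treated Irs2-/- against untreated WT islets it was 1, and 0 with only the arrays compared, 0 without both untreated arrays numbered 1, and 0 to 5 over the arrays left out, with 5 without the treated Irs2-/- array numbered 2. The cause was not tested.

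With the replicate block, in which arrays share only a number, 15 genes passed between the untreated genotypes, 14 of them the same, and no other call changed.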

Other observations

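The 6 genes under the filter were read as levels only. Syt16 had 5.27 and 5.12 in treated Irs2-/- islets, 5.34 and 5.49 in untreated Irs2-/- islets, 4.85 and 4.51 in treated WT islets, and 4.80 and 4.71 in untreated WT islets, so its Irs2-/- arrays all lay above its WT arrays. Stx11, a syntaxin of immune cells, had 4.71 and 5.09 in treated Irs2-/- islets, 5.23 and 4.92 in untreated Irs2-/- islets, 4.57 and 4.68 in treated WT islets, and 4.65 and 4.70 in untreated WT islets. Its Irs2-/- and WT arrays were barely apart, with the lowest Irs2-/- array at 4.7054 and the highest WT array at 4.7041. How many other genes separate the genotypes on all arrays was not counted. Cplx3, Cplx4, Stx19 and Syt10 lay between 4.02 and 5.26 on every array.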
